A study of Mus musculus with 2 samples.

Results

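The 10 genes Mafa, Pdx1, Nkx6-1, Nkx2-2, Neurod1, Isl1, Pax6, Mnx1, Foxa2 and Rfx6 encode transcription factors of the insulin-producing beta cell, and their RNA was followed in single cells of mouse pancreatic islets. They were taken by name, and 10 of 10 were present among the 32285 features of both count tables. The islets came from 12-week-old female mice on a C57BL/6 background, 1 library labelled SpopβKO, a name that denotes a Spop knockout in beta cells, and 1 library labelled Spop fl/fl, the control, with recombination sites at both Spop alleles and no Cre named. The labels used here give neither the Cre driver, the deleted exons nor the number of mice behind a library. Islets of both libraries spent 3 days in culture at 10 mM glucose before they were dispersed with trypsin. Levels are given as CPM: unique molecular identifiers (UMIs, counted RNA molecules, from 3′ transcript tags) per 1000000 UMIs other than those of Ins1, Ins2, Gcg, Sst and Ppy, so that the hormone load of a cell does not set them. With 1 library per genotype there are no replicates: every interval printed is a 95% interval of counting error, cells of 1 library are not replicates, no p-value was computed, and a difference between the genotypes is a difference between these 2 libraries. A gene is called higher or lower where its level differs at least 1.5-fold, a log2 ratio of 0.585.

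PDX1, MAFA and NEUROD1 bind the insulin gene promoters and act together on them. PDX1 and NKX6-1 keep the beta cell identity, MAFA marks its mature state, and MNX1 holds beta cells away from other islet fates. NKX2-2, ISL1, PAX6, FOXA2 and RFX6 are shared by several islet cell types, and NEUROD1 works in most of them. Mice have a pair of insulin genes: Ins2 has the structure of the ancestral gene and Ins1 arose from it by retroposition. SPOP, the substrate adaptor of a cullin-based ubiquitin ligase, has been described to bind PDX1 protein and lead to its degradation, which RNA counts do not measure.

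The SpopβKO library held 10033 barcodes and 89977773 UMIs, and the Spop fl/fl library 7768 barcodes and 82541585 UMIs. Cells with at least 500 genes and at most 15% mitochondrial UMIs numbered 8842 in the SpopβKO library, with a median of 7638.5 UMIs, and 6850 in the Spop fl/fl library, with a median of 8870.0 UMIs. The libraries shared 21 barcodes, 14 of them among these cells. Insulin led 6959 cells (78.7%) of the SpopβKO library and 3749 (54.7%) of the Spop fl/fl library, meaning that Ins1 and Ins2 together made up at least 1% of the UMIs and at least 3 times those of the next hormone. Glucagon led 917 SpopβKO and 1670 Spop fl/fl cells, pancreatic polypeptide 93 and 99, and somatostatin 4 and 6, too few to use. Other markers followed these names. Slc2a2, the glucose transporter of beta cells, stood at 131 CPM in insulin-led and 7.36 in glucagon-led SpopβKO cells, and at 60.0 and 4.48 in Spop fl/fl cells. Irx2, an alpha cell factor, stood at 4.19 and 99.7 CPM in the SpopβKO library and at 4.98 and 92.5 in the Spop fl/fl library.

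Spop RNA was not lower in the SpopβKO library. It stood at 95.8 CPM in insulin-led SpopβKO cells, against 75.1 in insulin-led Spop fl/fl cells, a log2 ratio of 0.35 (0.29 to 0.42). In glucagon-led cells it stood at 82.6 in the SpopβKO and 81.3 in the Spop fl/fl library. A 3′ tag need not lie in the deleted part of the gene, so Spop counts are no test of the genotype, and each direction given for a genotype rests on the labels.

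Free insulin RNA differed between the libraries. In macrophage, endothelial and mesenchymal cells, which make no insulin, Ins1 took a median of 0.159% of the UMIs in 96 SpopβKO cells and 0.016% in 62 Spop fl/fl cells, and Ins2 took 0.49% and 0.141%. The same cells give a floor for each of the 10 factors. Levels there ran up to 15.3 CPM (Mafa) in the SpopβKO library and up to 16.0 (Nkx6-1) in the Spop fl/fl library. The floor differed by factor, Pdx1 being at 2.70 in the SpopβKO and 1.14 in the Spop fl/fl library. Heat shock RNA differed as well: 13.0% of insulin-led SpopβKO cells and 35.9% of insulin-led Spop fl/fl cells had a UMI of Hspa1a or Hspa1b. Summed macrophage markers stood at 106.6 CPM in insulin-led SpopβKO cells, against 13.6 in insulin-led Spop fl/fl cells, where Adgre1 was at 0. Duct markers stood at 466 and 272, acinar markers at 44.8 and 7.71, and mesenchymal markers at 9.13 and 1.46. Single genes held most of some sums, C1qa being at 64.9 and 6.49 CPM. Cela1 was at 37.3 and 2.01, with Prss2, Try4 and Try5 also higher in SpopβKO cells and Cpa1, Cela2a, Pnlip and Ctrb1 lower. Krt7 was at 280 and 231 and Spp1 at 178 and 40.4, so a sum need not stand for its cell type. The part of free RNA, heat shock and macrophage RNA in the results below was not tested except where a value without such cells is given.

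Because the results turn on Ins1, the 250 bases before its RefSeq start (GRCm38.p6, chr19:52264047-52264296, plus strand) are shown with the E boxes that NEUROD1-type factors can bind (CANNTG) and the homeodomain core that PDX1-type factors can bind (TAAT) in capitals, on either strand. The same letters are in capitals in the 250 bases before the RefSeq start of Pdx1 (chr5:147269847-147270096, plus strand), the factor that SPOP binds as a protein. Just past the end of the Ins1 window, at chr19:52264311-52264334, lies the promoter element bound by MAFA, with the letters TCAGC in capitals. This element is known as C1 or RIPE3b from the rat insulin II gene. The annotated Ins1 start thus lies upstream of part of the promoter, and the Ins1 window leaves that part out. The Pdx1 window runs past the GENCODE start of Pdx1 at chr5:147269959, so its last bases lie inside that gene model.
Ins1 promoter: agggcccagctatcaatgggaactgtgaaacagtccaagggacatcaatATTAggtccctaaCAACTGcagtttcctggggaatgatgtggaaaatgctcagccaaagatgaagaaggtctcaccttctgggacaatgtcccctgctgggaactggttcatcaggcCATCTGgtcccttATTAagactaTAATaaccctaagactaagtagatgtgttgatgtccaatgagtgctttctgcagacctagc
Pdx1 promoter: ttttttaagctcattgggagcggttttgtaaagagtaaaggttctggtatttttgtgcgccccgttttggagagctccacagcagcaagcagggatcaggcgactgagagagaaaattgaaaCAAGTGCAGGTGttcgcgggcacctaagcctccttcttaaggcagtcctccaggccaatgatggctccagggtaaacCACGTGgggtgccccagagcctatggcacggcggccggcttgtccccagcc
Ins1 C1 element: tggaaactgcagctTCAGCccctc
The Ins1 window held 3 homeodomain cores and 2 E boxes, and the Pdx1 window held 0 homeodomain cores and 3 E boxes. Of 32851 windows of the same length before all RefSeq starts, 54.9% held the homeodomain core, 66.2% an E box and 46.8% the letters TCAGC, so that such matches are common and describe the sequence alone. Windows were at hand for 9 of the 10 factors.

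Mafa, Pdx1, Nkx6-1 and Mnx1 separated insulin-led from glucagon-led cells, several-fold in both libraries, while Isl1 was lower in both and Foxa2 in the Spop fl/fl library. Of the 10 factors, 5 were called higher and 1 lower in insulin-led cells of the SpopβKO library, where 14.1% of 8981 genes were called higher and 6.73% lower. Spop fl/fl cells had 4 called higher and 2 lower, where 14% of 8867 genes were called higher and 9.44% lower. The median log2 ratio of the 10 was 0.59 in the SpopβKO library and 0.03 in the Spop fl/fl library, beside 0.12 for all genes in each.

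**Figure D1:**
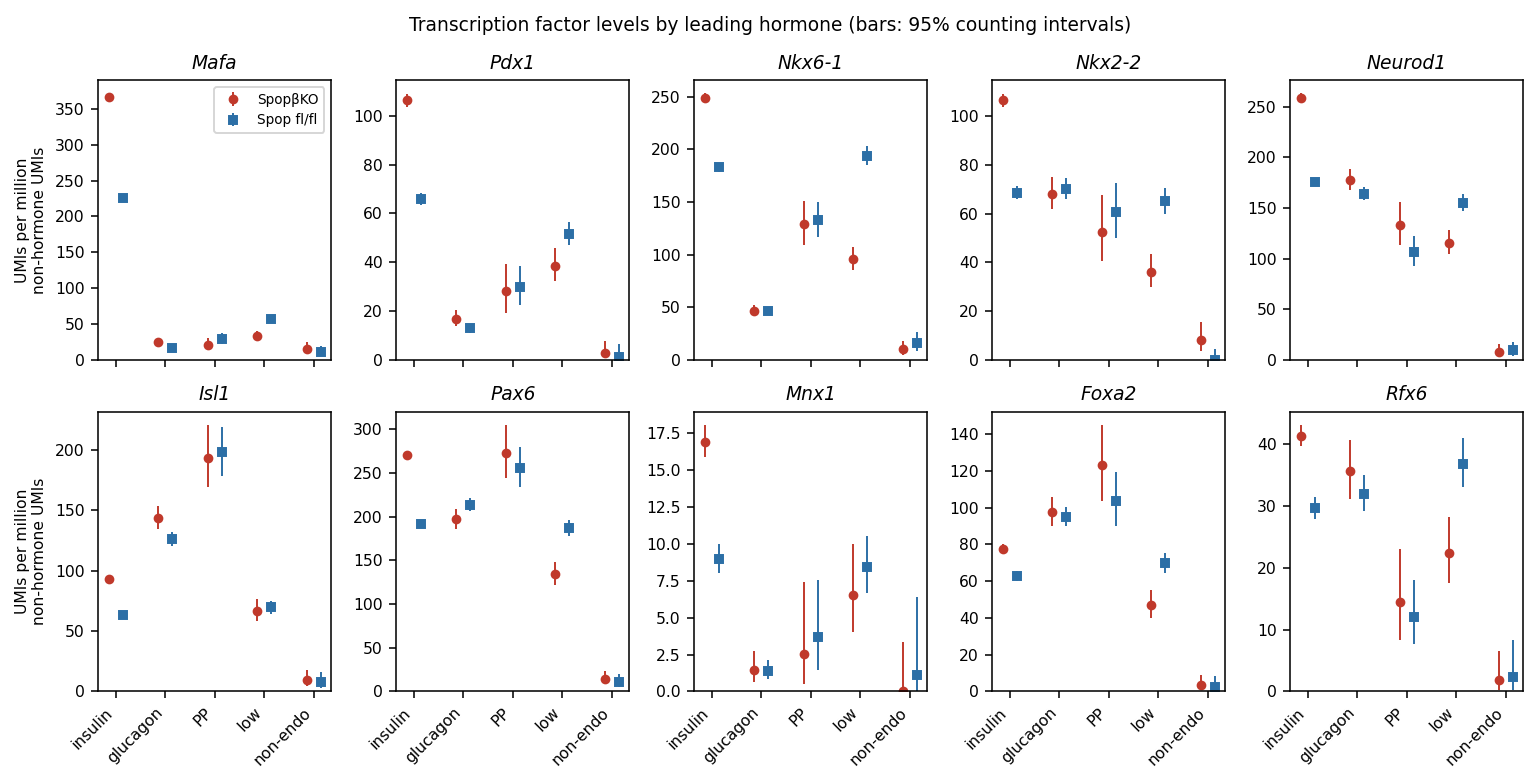
CPM of each factor in cells led by insulin, glucagon or pancreatic polypeptide (PP), in low-hormone cells and in non-endocrine cells, SpopβKO (circles) left of Spop fl/fl (squares), with bars for 95% counting intervals. Non-endocrine cells, picked by markers, can also be in a group by leading hormone or in the low-hormone group. Mafa is at 367 in insulin-led SpopβKO and 226 in insulin-led Spop fl/fl cells and under 60 in every other group drawn, whereas Isl1 is highest in PP-led cells.

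Mafa (chr15:75745490-75748228, mm10, minus strand), a leucine zipper factor that raises insulin transcription with glucose, was at 367 CPM in insulin-led and 24.3 in glucagon-led SpopβKO cells, 15.1-fold higher (log2 3.91, 3.68 to 4.15). In the Spop fl/fl library it was at 226 in insulin-led and 16.6 in glucagon-led cells, 13.6-fold higher. After thinning each cell to 5000 UMIs, a Mafa UMI was seen in 9.28% of glucagon-led SpopβKO cells (7.14% to 11.8%) and in 7.69% of non-endocrine SpopβKO cells (2.88% to 16.0%). The Spop fl/fl shares were 6.08% of glucagon-led and 5.66% of non-endocrine cells. Log2 ratios of Mafa in glucagon-led over non-endocrine cells were 0.67 (−0.05 to 1.49) in the SpopβKO and 0.69 (−0.26 to 1.83) in the Spop fl/fl library. Both intervals include 0 and are wide, so Mafa in glucagon-led cells cannot be told apart from background here. Its fold over these cells is thus no measure of alpha cell expression. Without thinning, the glucagon-led shares were 13.1% in the SpopβKO and 11.1% in the Spop fl/fl library, at median depths of 6261 and 7751.5 UMIs.

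Pdx1 (chr5:147269959-147275848, plus strand), the homeodomain factor of pancreas formation and of insulin transcription, was at 106.4 CPM in insulin-led and 16.8 in glucagon-led SpopβKO cells, 6.33-fold higher. Spop fl/fl cells had it at 65.8 and 12.8, 5.13-fold higher. Nkx6-1 (chr5:101658139-101664996, minus strand), a repressor of alpha cell genes in beta cells, was at 249 in insulin-led and 46.7 in glucagon-led SpopβKO cells, and at 183 and 46.1 in Spop fl/fl cells. Nkx6-1 was also well above the non-endocrine level in PP-led cells, at 129 in the SpopβKO and 132.5 in the Spop fl/fl library. Mafa in PP-led SpopβKO cells was at 20.4 (13.0 to 30.3), near the 15.3 of non-endocrine cells. In the Spop fl/fl library it was at 29.2 (22.1 to 37.9) in PP-led cells, above the 10.3 (4.71 to 19.5) of non-endocrine cells. Mnx1 (chr5:29473034-29478470, minus strand) was rare throughout, at 16.9 in insulin-led and 1.44 in glucagon-led SpopβKO cells, and at 8.93 and 1.36 in Spop fl/fl cells. Its glucagon-led levels rest on 9 SpopβKO and 20 Spop fl/fl UMIs.

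Isl1 (chr13:116298281-116309689, minus strand), a LIM homeodomain factor needed by all islet hormone cells, had the opposite order. It was at 93.1 CPM in insulin-led and 143.6 in glucagon-led SpopβKO cells (log2 −0.62, −0.73 to −0.52), and at 63.6 and 126.0 in Spop fl/fl cells (−0.99, −1.07 to −0.90). PP-led cells were highest, at 193 in the SpopβKO and 198 in the Spop fl/fl library. Foxa2 (chr2:148042877-148046969, minus strand), a forkhead factor that opens chromatin in gut-derived tissues, also stood lower in insulin-led than in glucagon-led cells, at 77.6 and 97.5 in the SpopβKO library and at 62.8 and 94.9 in the Spop fl/fl library. That difference was past 1.5-fold in the Spop fl/fl library only, and the difference between the libraries was not tested.

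The other 4 factors were expressed in both insulin-led and glucagon-led cells, and of them Nkx2-2 alone passed 1.5-fold, in the SpopβKO library. Neurod1 (chr2:79452521-79456751, minus strand), a helix-loop-helix factor, was at 259 in insulin-led and 178 in glucagon-led SpopβKO cells, and at 176 and 164 in Spop fl/fl cells. Pax6 (chr2:105668900-105697364, plus strand), which acts on glucagon and insulin genes alike, was at 271 and 197 in the SpopβKO and at 192 and 213 in the Spop fl/fl library. Nkx2-2 (chr2:147177546-147194243, minus strand) was at 106.5 and 68.2 in the SpopβKO library and at 68.5 and 70.0 in the Spop fl/fl library. Rfx6 (chr10:51677756-51730432, plus strand), a regulator of islet formation, was at 41.4 and 35.7 in the SpopβKO and at 29.7 and 32.0 in the Spop fl/fl library, and was lower in PP-led cells, at 14.4 and 12.0. Annotated antisense genes overlap Pdx1, Nkx2-2 and Pax6, and Cerkl overlaps Neurod1 on its own strand, so their counts may hold reads of these neighbours.

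Low-hormone cells, in which no hormone reached 1%, carried many of the factors. The 806 such cells of the Spop fl/fl library had Nkx6-1 at 194 CPM, close to the 183 of insulin-led cells, with Mafa at 57.2, under the 226 of insulin-led cells. The 287 low-hormone SpopβKO cells had Nkx6-1 at 96.1 and Mafa at 33.0, and 10 of 10 factors were lower than in low-hormone Spop fl/fl cells, by log2 ratios of −0.06 (Isl1) to −1.01 (Nkx6-1). The share of all genes was not taken for this comparison. Low-hormone cells can include non-endocrine cells, which were picked by markers whatever their leading hormone. Lyz2, a macrophage marker, had 3188 UMIs in low-hormone and 3690 in non-endocrine SpopβKO cells. Markers of other cell types also differed: acinar markers summed to 2424 CPM in low-hormone SpopβKO and 114 in low-hormone Spop fl/fl cells, mesenchymal markers to 1202 and 122, macrophage markers to 2000 and 498, and duct markers to 999.6 and 391.9. Their part in the lower levels was not tested.

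In insulin-led cells 10 of 10 factors stood higher in the SpopβKO than in the Spop fl/fl library, where 4147 of 8835 genes did. Mafa, Pdx1, Nkx2-2 and Mnx1 passed 1.5-fold and none was called lower, where 7.74% of 8835 genes were called higher and 2.98% lower. The median log2 ratio of the 10 was 0.56, beside −0.02 for all genes. Mafa was at 367 in SpopβKO and 226 in Spop fl/fl cells, a log2 ratio of 0.70 (0.66 to 0.74). Pdx1 was at 106.4 and 65.8 (0.69, 0.62 to 0.76), Mnx1 at 16.9 and 8.93 (0.92, 0.74 to 1.10), and Foxa2, the least different, at 77.6 and 62.8 (0.31, 0.23 to 0.38). When cells with a Hspa1a or Hspa1b UMI were left out, 1 factor was called higher, where 6.79% of all genes were, the median was 0.38 and the ratio of Mafa 0.34, and 10 of 10 were above 0. In glucagon-led cells 8 of the 10 factors differed between the libraries by log2 ratios within 0.19 of 0, Mafa by 0.56, at 24.3 in SpopβKO and 16.6 in Spop fl/fl cells, and Pdx1 by 0.39, at 16.8 and 12.8, with Mafa there near its level in non-endocrine cells.

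To set the libraries side by side at like insulin RNA, insulin-led cells with at least 5000 UMIs were thinned to 5000 UMIs, which left 4406 SpopβKO and 2695 Spop fl/fl cells. They were divided into 5 bands by their Ins1 and Ins2 share, bounded at 0.76%, 3.98%, 8.56%, 15.5%, 29.4% and 83.9% of UMIs, with 460 to 962 cells per library and band. In the SpopβKO library 8 of the 10 factors stood higher in the highest than in the lowest band, all but Foxa2 and Rfx6, where 3391 of 8858 genes did. In the Spop fl/fl library 2 of the 10 did, Mafa and Neurod1, where 2671 of 8447 genes did. Scaled to all UMIs, the factors that stood higher were 4 (Mafa, Pdx1, Nkx2-2 and Mnx1) in the SpopβKO and 1 (Mafa) in the Spop fl/fl library.

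Mafa stood at 83.2, 143, 235, 534 and 835 CPM in SpopβKO bands 1 to 5, against 140.2, 175, 148, 221 and 378 in Spop fl/fl bands 1 to 5. It rose through all 5 SpopβKO bands, a 10.0-fold difference between the highest and the lowest band, against 2.70-fold in the Spop fl/fl library. Pdx1 stood at 80.4, 91.1, 90.4, 124 and 146 in SpopβKO bands 1 to 5, against 72.0, 58.8, 57.9, 56.1 and 50.2 in Spop fl/fl bands 1 to 5. It was thus highest in the highest insulin band of SpopβKO cells and lowest in that of Spop fl/fl cells, but without thinning its Spop fl/fl log2 ratio of band 5 over band 1 was 0.07, against −0.52 with it. Nkx6-1 stood at 201, 219.7, 224, 230.0 and 316 in SpopβKO bands, against 221, 178, 138, 100.1 and 117 in Spop fl/fl bands. Log2 ratios of band 5 over band 1 for Nkx6-1 were 0.66 (0.51 to 0.80) in the SpopβKO library, or −0.0794 when scaled to all UMIs, and −0.92 (−1.19 to −0.66) in the Spop fl/fl library.

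**Figure D2:**
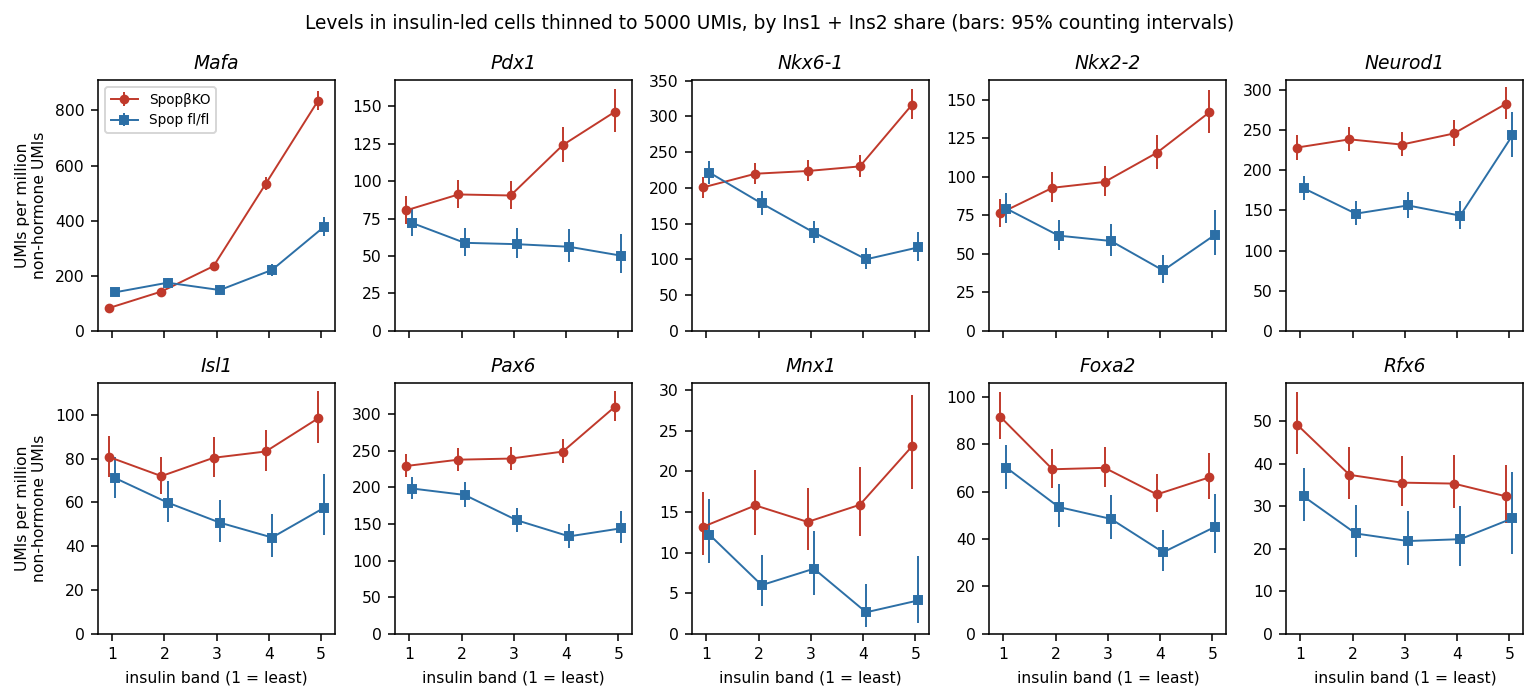
CPM of each factor in insulin-led cells thinned to 5000 UMIs, by band of the Ins1 and Ins2 share (1 to 5), SpopβKO (circles) and Spop fl/fl (squares), with bars for 95% counting intervals. Mafa climbs to 835 in SpopβKO and 378 in Spop fl/fl cells of band 5, while Pdx1 and Nkx6-1 end higher in band 5 than in band 1 in SpopβKO cells and lower in Spop fl/fl cells, with the sign turned for SpopβKO Nkx6-1 when scaled to all UMIs and for Spop fl/fl Pdx1 without thinning.

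Neurod1 stood at 228, 239, 232, 246 and 283 in SpopβKO bands, against 178, 146, 156, 144 and 244 in Spop fl/fl bands, highest in band 5 of both. Pax6 ran between 229 and 309.97 in SpopβKO bands, highest in band 5, and between 133 and 198 in Spop fl/fl bands, highest in band 1. Foxa2 and Rfx6 stood lower in band 5 than in band 1: Foxa2 was at 66.0 in band 5 and 91.7 in band 1 of the SpopβKO library, and at 45.2 and 70.1 in the Spop fl/fl library. Rfx6 was at 32.3 in band 5 and 49.1 in band 1 of the SpopβKO library, and at 27.1 and 32.3 in the Spop fl/fl library. For Rfx6 the Spop fl/fl log2 ratio was −0.25 (−0.86 to 0.32), an interval that includes 0. With cells thinned to 2500 non-hormone UMIs it was 0.71, and with 3000 UMIs 0.37, so its direction there is not settled.

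Between the highest and the lowest band, 5 factors (Mafa, Pdx1, Nkx6-1, Nkx2-2 and Mnx1) were called higher and 1 (Rfx6) lower in the SpopβKO library, where 8.76% of 8858 genes were called higher and 16.8% lower. Spop fl/fl cells had 1 (Mafa) called higher and 3 (Nkx6-1, Mnx1 and Foxa2) lower, where 9.45% of 8447 genes were called higher and 34.1% lower. The median log2 ratio of the 10 was 0.55 in the SpopβKO library, beside −0.14 for all genes, and −0.40 in the Spop fl/fl library, beside −0.32. The call of Rfx6 was lost under most other settings. Scaled to all UMIs instead, insulin included, 1 factor was called higher and 2 lower in the SpopβKO library and 0 higher and 8 lower in the Spop fl/fl library. That scale moved the median of all genes to −0.88 in the SpopβKO and −1.21 in the Spop fl/fl library, with 1.31% of genes called higher and 74.2% lower in the SpopβKO library and 1.29% and 82.9% in the Spop fl/fl library. On it the 10 factors had a median of −0.19 in the SpopβKO and −1.29 in the Spop fl/fl library. With TMM factors 11.2% of genes were called higher and 11.2% lower in the SpopβKO library, and 17.3% and 19.6% in the Spop fl/fl library. The 10 factors then had a median of 0.66 in the SpopβKO and −0.14 in the Spop fl/fl library, beside −0.02 and −0.03 for all genes. Without thinning their medians were 0.67 and −0.11, beside −0.11 and −0.24 for all genes.

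Single cells were also compared at an equal number of non-hormone UMIs, 2500 in each. The mean number of the 10 factors with at least 1 UMI was 2.01, 2.11, 2.16, 2.33 and 2.85 in SpopβKO bands 1 to 5 (SD over cells 1.54 to 2.15). It was 1.89, 1.74, 1.45, 1.28 and 1.67 in Spop fl/fl bands 1 to 5 (SD 1.27 to 1.53). SpopβKO cells thus held more of the factors from band to band, and Spop fl/fl cells held fewest in band 4. No such count of other genes is given here, so the pattern is not shown to be particular to the factors. A Mafa UMI was seen in 16.3%, 19.5%, 25.6%, 34.4% and 49.5% of cells in SpopβKO bands 1 to 5, against 21.1%, 20.0%, 16.8%, 16.7% and 28.7% in Spop fl/fl bands 1 to 5. These bands were drawn anew at that depth and hold 870 to 1076 SpopβKO and 509 to 715 Spop fl/fl cells each. In non-endocrine cells thinned to 5000 UMIs the Mafa shares were 7.69% and 5.66%.

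Set against each other within bands, most factors stood further above Spop fl/fl in SpopβKO cells with much insulin RNA than in those with little, and Mafa lay below it in cells with little. The median log2 ratio of SpopβKO over Spop fl/fl over the 10 factors was 0.17, 0.48, 0.66, 1.03 and 1.12 in bands 1 to 5. Called higher were 1, 5, 8, 10 and 7 of the 10, where 5.47%, 9.65%, 12.6%, 18.7% and 25.8% of all genes were. Called lower was 1 factor, Mafa in band 1, where 3.12% of all genes were, and 0 in bands 2 to 5, where 5.78%, 7.5%, 10.1% and 9.39% were. Averaged over bands with equal weight, 5 factors (Pdx1, Nkx6-1, Nkx2-2, Pax6 and Mnx1) were called higher and 0 lower, where 12.1% of 8722 genes were called higher and 3.78% lower. The median of the 10 was 0.61, beside 0.03 for all genes.

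Mafa crossed over: its log2 ratios were −0.75, −0.29, 0.67, 1.27 and 1.14 in bands 1 to 5, so that its average of 0.41 describes no single band. Its ratio in band 5 exceeded that in band 1 by 1.90 (1.64 to 2.15). Nkx6-1 had ratios of −0.14, 0.30, 0.70, 1.2 and 1.44, and Pdx1 of 0.16, 0.63, 0.64, 1.14 and 1.54, each larger from band to band. For Neurod1, Foxa2 and Rfx6 the change of the ratio between bands 1 and 5 was −0.14 (−0.39 to 0.10), 0.16 (−0.34 to 0.66) and −0.35 (−1.02 to 0.32), intervals that include 0. Without cells that have a Hspa1a or Hspa1b UMI, 6 factors were called higher on average over bands, where 12.7% of all genes were and 3.27% were called lower, with Mafa at 0.05 and Pdx1 at 0.73.

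Other measures of the same cells also moved over the bands. Ins1 made up 13.0%, 12.4%, 15.4%, 22.8% and 28.5% of insulin UMIs in SpopβKO bands 1 to 5, against 6.02%, 6.78%, 6.79%, 7.12% and 11.4% in Spop fl/fl bands 1 to 5. Cells with a Hspa1a or Hspa1b UMI made up 10.98%, 10.8%, 10.2%, 7.58% and 4.68% in SpopβKO bands, against 20.2%, 30.5%, 35.6%, 34.2% and 18.0% in Spop fl/fl bands. Summed heat shock genes ran between 3247 and 4760.5 CPM in the SpopβKO library and between 5614 and 7008 in the Spop fl/fl library. Summed genes of the CHOP pathway, a late arm of the unfolded protein response, stood at 1608 in band 5 and 2766 in band 1 of the SpopβKO library, and at 2898 and 3528 in the Spop fl/fl library. Median mitochondrial shares were 2.07% in band 5 and 1.72% in band 1 of the SpopβKO library, and 0.742% and 1.79% in the Spop fl/fl library. Duct markers summed to 599 CPM in band 5 and 391 in band 1 of the SpopβKO library, and to 164 and 327 in the Spop fl/fl library. Alpha cell markers other than Gcg summed to 301 in band 5 and 174 in band 1 of the SpopβKO library, and to 491 and 155 in the Spop fl/fl library. Macrophage markers summed to 52.3 to 151 over SpopβKO bands and 7.12 to 28.8 over Spop fl/fl bands. The part of these measures in the differences between the libraries was not tested, save for leaving out the Hspa1a and Hspa1b cells.

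**Figure D3:**
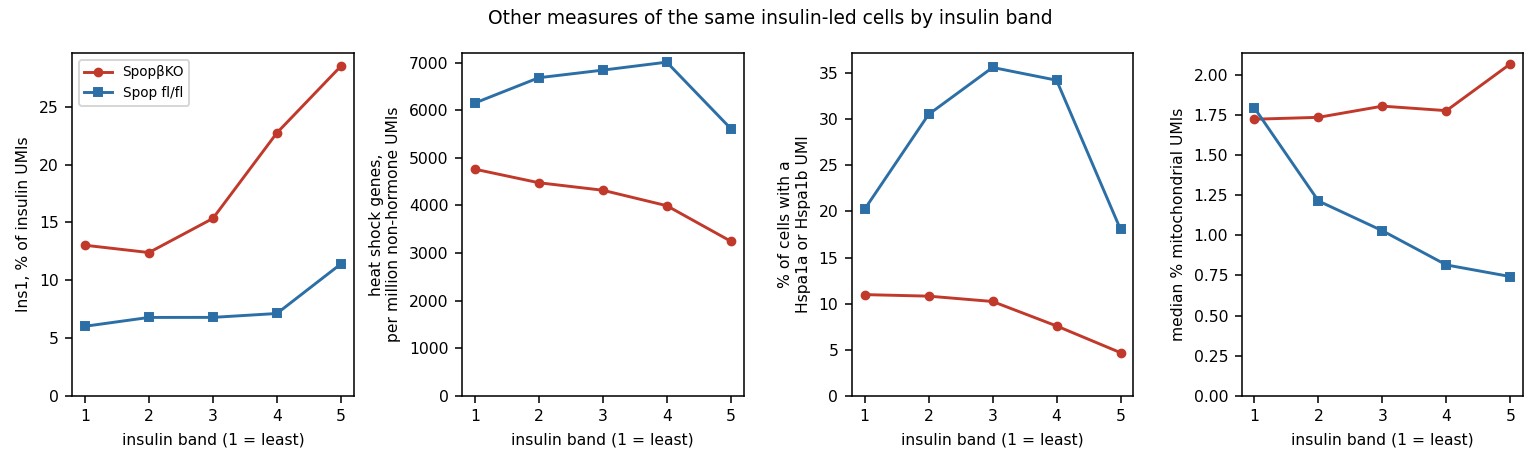
Ins1 as a percentage of insulin UMIs, summed CPM of heat shock genes, percentage of cells with a Hspa1a or Hspa1b UMI, and median percentage of mitochondrial UMIs by insulin band (1 to 5), SpopβKO (circles) and Spop fl/fl (squares). SpopβKO cells hold more of their insulin as Ins1 in every band, 28.5% against 11.4% in band 5, and less heat shock RNA.

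Because SpopβKO cells held more Ins1 at a like total, the bands were drawn again by the Ins1 share alone and by the Ins2 share alone. Most of the factors were higher in the highest than in the lowest Ins1 band of both libraries, and Mafa alone was called higher between such Ins2 bands. The genotype difference of Mafa at a like Ins1 share was below 0. Many factors did not rise steadily with Ins1. Nkx6-1 stood at 205, 149, 111, 119 and 292 CPM in Spop fl/fl Ins1 bands 1 to 5, and at 211, 185, 166, 190 and 401 in SpopβKO Ins1 bands. Nkx2-2, Isl1 and Pax6 were also lower in Spop fl/fl Ins1 bands 2 to 4 than in band 1. How reads shared by these near-identical genes were assigned is not given in the sources used here. Between the highest and the lowest Ins1 band, 8 factors were called higher and 0 lower in the SpopβKO library, all but Foxa2 and Rfx6, where 11.7% of genes were called higher and 17.7% lower. In the Spop fl/fl library 6 were called higher and 1 (Mnx1, on few UMIs) lower, where 12% of genes were called higher and 32.1% lower. Between the highest and the lowest Ins2 band, 1 factor was called higher (Mafa) and 2 lower (Foxa2 and Rfx6) in the SpopβKO library, where 6.98% and 20.5% of genes were. In the Spop fl/fl library 1 was called higher (Mafa) and 6 lower, where 9.47% and 31.4% were.

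Mafa stood at 68.7, 68.1, 104.0, 251 and 1075 CPM in SpopβKO Ins1 bands 1 to 5, against 104.0, 103.9, 152, 307 and 1226 in Spop fl/fl Ins1 bands 1 to 5. The climb, 15.7-fold in the SpopβKO and 11.8-fold in the Spop fl/fl library, was thus found in both libraries once cells were ordered by Ins1. At a like Ins1 share Mafa was lower in SpopβKO cells in all 5 bands, by log2 ratios of −0.60, −0.61, −0.54, −0.29 and −0.19, each with an interval below 0. Ins2 was not alike within these bands. It made up 17.5% of UMIs in SpopβKO and 30.4% in Spop fl/fl cells of band 4, and 22.5% and 42.1% in band 5. The part of Ins2 in the Mafa ratios was not tested. Pdx1 kept a higher level in SpopβKO cells, with log2 ratios of 0.12, 0.53, 0.48, 0.57 and 0.54. Its band 5 levels were 202 in SpopβKO and 139 in Spop fl/fl cells. Over the 10 factors the medians were 0.20, 0.45, 0.48, 0.46 and 0.38, with 0, 3, 1, 3 and 2 called higher, where 6.23%, 10.2%, 12.5%, 17.3% and 22.6% of all genes were. Mafa was called lower in bands 1 and 2, where 3.8% and 4.55% of all genes were, and 0 factors were in bands 3 to 5, where 5.29%, 7.22% and 8.17% were. Averaged over Ins1 bands 1 factor was called higher and 9 of 10 were above 0, Mafa being at −0.45, where 10.7% of all genes were called higher and 2.62% lower.

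The Ins1 bands were bounded at 0%, 0.3%, 0.64%, 1.4%, 4.56% and 31.1% of UMIs. They held 538, 848, 828, 962 and 1230 SpopβKO cells and 866, 556, 625, 451 and 197 Spop fl/fl cells. The lowest bands lie near the free Ins1 RNA of the SpopβKO library, a median of 0.159% in non-endocrine cells, against 0.016% in the Spop fl/fl library. Cells with a Hspa1a or Hspa1b UMI made up 2.85% of the SpopβKO and 9.64% of the Spop fl/fl cells in the highest Ins1 band, and the median mitochondrial share there was 3.67% and 1.08%.

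**Figure D4:**
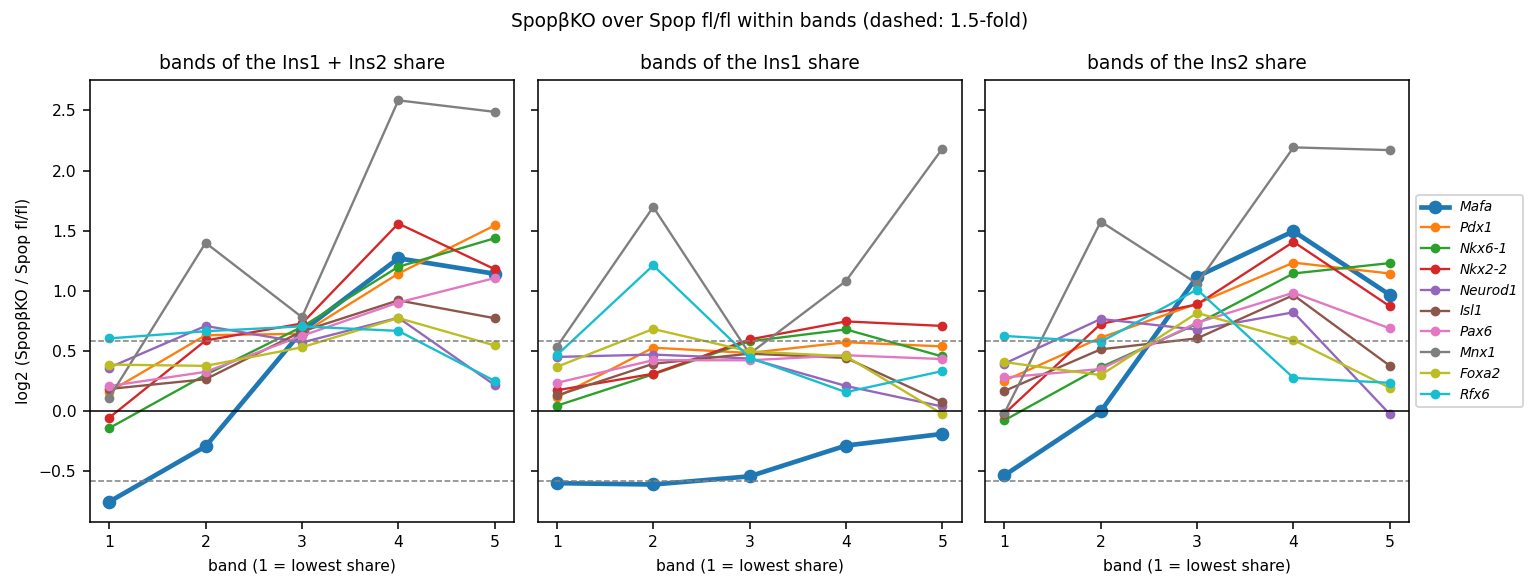
The log2 ratio of SpopβKO over Spop fl/fl for each factor in bands 1 to 5 of the summed insulin share (left), the Ins1 share (middle) and the Ins2 share (right), with the 1.5-fold lines dashed. Mafa runs between −0.75 and 1.27 over bands of summed insulin and stays below 0, at −0.61 to −0.19, over bands of Ins1.

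With cells ordered by Ins2, the genotype difference was large from band 3 on. Mafa stood at 106.2, 187.5, 337, 616 and 525 in SpopβKO Ins2 bands 1 to 5, against 154, 188, 155, 219 and 269 in Spop fl/fl Ins2 bands 1 to 5. Called higher in SpopβKO cells were 1, 4, 10, 9 and 6 of the 10, where 5.75%, 10.6%, 14%, 18% and 18.2% of all genes were. Called lower were 0 in each of the 5 bands, where 3.25%, 6.25%, 8.62%, 10.1% and 9.22% were.

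Ordering by both insulin genes at once set apart the Ins1 and the Ins2 share. Cells were divided at 0.5% and 2% Ins1 and at 6.01% and 15.4% Ins2 into 3 by 3 fields, and fields of at least 50 cells are given. In SpopβKO cells with middle Ins2, Mafa was at 71.3 with lowest, 82.5 with middle and 871 with highest Ins1. In SpopβKO cells with middle Ins1, Mafa was at 216 with lowest, 82.5 with middle and 44.8 with highest Ins2. Pdx1 showed the same order, at 119 with lowest, 59.7 with middle and 41.9 with highest Ins2 in the SpopβKO cells with middle Ins1. In Spop fl/fl cells with middle Ins1, Mafa was at 771, 135 and 57.9 and Pdx1 at 124, 56.1 and 39.2 with lowest, middle and highest Ins2. At middle Ins1, 10 of 10 factors were thus lower with highest than with lowest Ins2, by log2 ratios of −0.92 to −2.27 in SpopβKO cells and −1.002 to −3.74 in Spop fl/fl cells. The share of all genes was not taken in these fields, so the fall is not shown to be particular to the factors. The Spop fl/fl field with lowest Ins2 held 68 cells, and that of the SpopβKO library 342. At highest Ins1 the order differed in SpopβKO cells: Mafa was at 582 with lowest, 871 with middle and 717 with highest Ins2, a log2 ratio of highest over lowest of 0.30. The other 9 factors had ratios there of −0.37 (Nkx6-1) to −1.06 (Isl1), each nearer to 0 than at middle Ins1. In the Spop fl/fl library the highest Ins1 field with at least 50 cells was that with highest Ins2, where Mafa was at 546 in 437 cells.

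**Figure D5:**
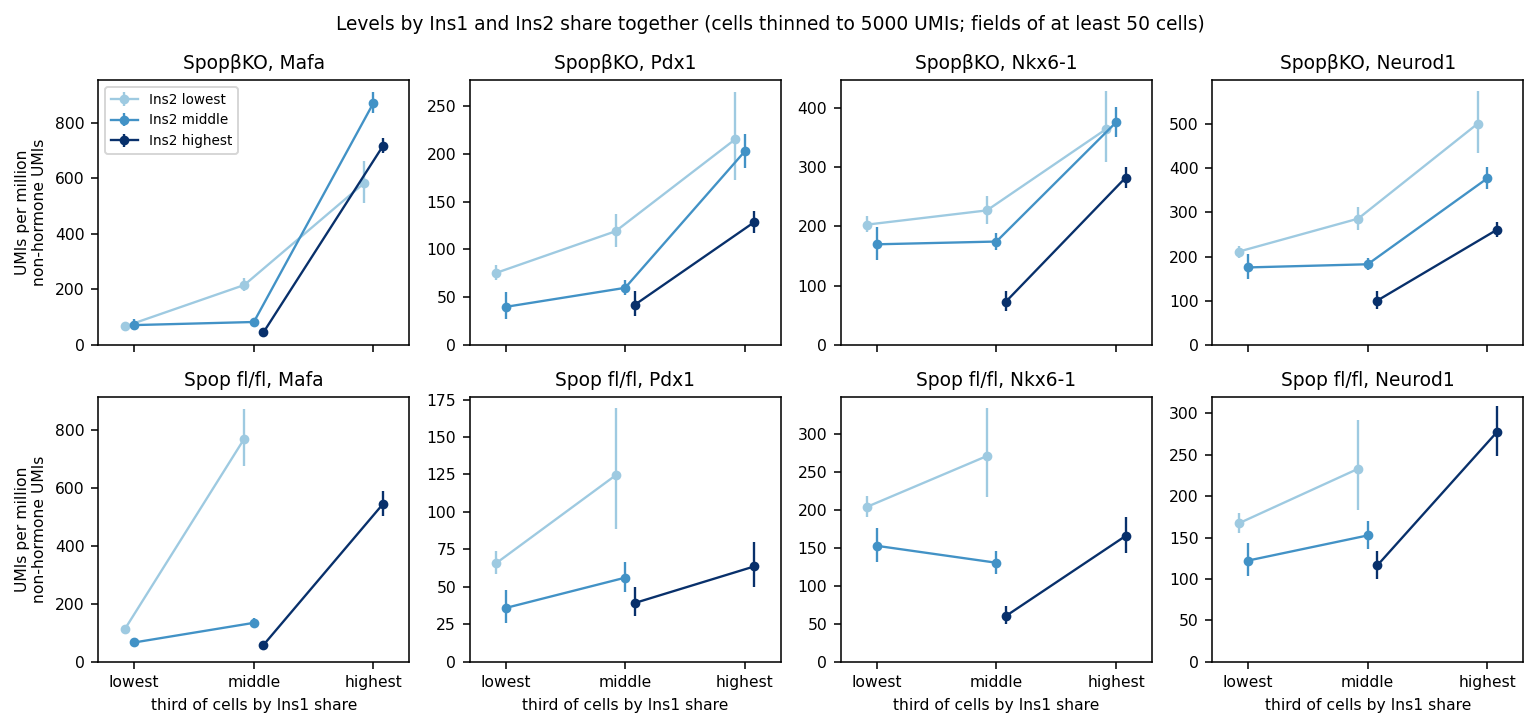
CPM of Mafa, Pdx1, Nkx6-1 and Neurod1 by Ins1 share (lowest, middle, highest, on the x axis) within cells of lowest, middle and highest Ins2 share (light to dark), SpopβKO above Spop fl/fl, with bars for 95% counting intervals. At middle Ins1 the dark points lie lowest, as for Mafa at 44.8 against 216 in SpopβKO cells and 57.9 against 771 in Spop fl/fl cells.

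Ranks over single cells, given as a description, put Mafa nearer to the Ins1 than to the Ins2 share. In 4990 SpopβKO cells, Spearman's rho of Mafa UMIs with the Ins1 share was 0.46 and with the Ins2 share 0.19, and in 2933 Spop fl/fl cells these were 0.15 and 0.02. For Pdx1 they were 0.21 and 0.04 in the SpopβKO and 0.02 and −0.03 in the Spop fl/fl library. For Nkx6-1 they were 0.18 and 0.005 in the SpopβKO and −0.10 and −0.16 in the Spop fl/fl library. Nkx2-2, Isl1, Pax6 and Foxa2 also had a rho below 0 with the Ins1 share in the Spop fl/fl library, Isl1 at −0.0009. Neurod1, Mnx1 and Rfx6 were above 0 there. These cells share a library, most counts are 0, and weak values are no finding.

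The genes whose pattern was most like that of the factors were ranked over 18 groups, the 5 insulin bands and the glucagon-led, PP-led, mixed and low-hormone cells of both libraries. Acly, the cytosolic enzyme that makes acetyl-CoA from citrate, was most like the mean of the 10 (Pearson r = 0.98 of log2 levels), before Syt13, Kif12, Rab27a and Cmip (0.97 to 0.93) among 5977 genes. Slc2a2 and Ero1lb, which encodes an oxidase of the endoplasmic reticulum, were most like Mafa (0.97), before the hormone gene Ucn3, the cation channel gene Trpm5 and Ppp1r1a. Among the 10, Pdx1 and Mnx1 followed the mean of the others most closely (0.83 each), and Isl1 and Foxa2 ran against it (−0.40 and −0.32). Groups of 1 library share its free RNA and preparation.

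Other genes of the network were taken as lists. Of 22 measured genes described as targets of the factors, 16 were called higher and 1 lower in insulin-led than in glucagon-led SpopβKO cells, and 15 higher and 1 lower in Spop fl/fl cells, where 14.1% and 6.73%, and 14% and 9.44%, of all genes were. Between the highest and the lowest insulin band 19 of 22 were called higher and 0 lower in the SpopβKO library, and 11 higher and 2 lower in the Spop fl/fl library, where 8.76% and 16.8%, and 9.45% and 34.1%, of all genes were. Within insulin bands 12 of 22 were called higher and 0 lower in SpopβKO than in Spop fl/fl cells, where 12.1% and 3.78% of all genes were, led by Chgb, a granule protein gene, at 3894 against 863 CPM, Ntrk2 at 98.8 against 23.1, and G6pc2, a glucose-6-phosphatase subunit gene of beta cells, at 258 against 67.7.

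Of 12 measured other islet transcription factor genes, 6 were called higher and 0 lower in SpopβKO than in Spop fl/fl cells within insulin bands. Myt1 was at 31.4 CPM in SpopβKO and 14.2 in Spop fl/fl cells, and Meis2 at 252 and 114. That comparison had 12.1% of all genes called higher and 3.78% lower. Between insulin-led and glucagon-led cells, 15 of these genes were measured, of which 4 were called higher and 6 lower in the SpopβKO library (14.1% and 6.73% of all genes) and 3 higher and 6 lower in the Spop fl/fl library (14% and 9.44%), Irx1 and Irx2 being among the lower. Between the highest and the lowest band, 1 of 12 was called higher and 2 lower in the SpopβKO library (8.76% and 16.8% of all genes), and 3 higher and 6 lower in the Spop fl/fl library (9.45% and 34.1%). Insm1 was among the lower in the SpopβKO library, at 139 in band 5 and 227 in band 1, and Myt1 in the Spop fl/fl library, at 9.05 and 21.3. Mlxipl, which encodes the glucose-responsive factor ChREBP, was among the higher in both, at 117 in band 5 and 46.9 in band 1 of the SpopβKO library and at 118 and 48.5 in the Spop fl/fl library. Of 20 measured coregulator genes, 3 (Tle3, Smarca2 and Ssbp3) were called higher and 0 lower in SpopβKO than in Spop fl/fl cells within insulin bands, a share near the 12.1% and 3.78% of all genes, at a median log2 ratio of 0.11. Ssbp3, whose product joins ISL1 and LDB1 in a complex, was at 139 in SpopβKO and 88.0 in Spop fl/fl cells.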

How the data were processed

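Per the labels' protocols, single-cell libraries were made with the 10x Genomics 3′ chemistry. The authors deposited 1 sparse matrix a library of UMI counts, unnormalized, over genes and filtered barcodes. Per the file headers, Cell Ranger (6.0.0) made them. The submitters' processing notes name the mm10 build, R 4.1.1 and Seurat 4.1.0. How reads shared by Ins1 and Ins2 were assigned and whether strand was used are not given in the sources used here. No doublet caller was run. Cells with a leading hormone under 3 times the next were set apart as mixed (582 SpopβKO and 520 Spop fl/fl cells).

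Counts were summed over cells and given per 1000000 non-hormone UMIs (CPM), with exact Poisson intervals for levels, exact conditional intervals for ratios, Clopper-Pearson intervals for shares and approximate intervals for ratios averaged over bands or subtracted between them, all at 95% and covering counting error only. Backgrounds are genes with a mean of at least 10 CPM in the 2 groups compared. Non-endocrine cells had at least 10 UMIs of macrophage, endothelial or mesenchymal markers and under 5% hormone UMIs, and were not taken out of the other groups. Groups and fields with under 50 cells were not used. Ratios and intervals were checked on simulated counts. Software was pandas 2.3.3, scipy 1.17.1 and numpy 2.4.6 under Python 3.11.15, with figures by matplotlib 3.10.9. Gene positions are from GENCODE mouse annotation on mm10, matched by identifier.

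The 10 factors, the lists and the tests were chosen with earlier results of these data known. Named genes were the 10 factors, Spop, Ins1 and Ins2, up to 4 genes of each list with the largest ratio, and the 5 genes most like the factors and most like Mafa. Slc2a2 and Irx2 were named as markers. Some genes that this rule names are not reported here. Alternatives changed the scaling, the cell filter, the hormone gate, the weight of a cell, the depth, the bands and the filter on low levels. Thinning to 2500 non-hormone UMIs, leaving out cells with Hspa1a or Hspa1b UMIs, leaving out the 10% of cells with the most UMIs, and the fields of Ins1 by Ins2 were added after the data had been seen.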

Additional observations from a re-analysis of the deposited data

How the results depend on the processing

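No paired analysis was possible because each genotype has 1 library. Counts of called factors are the values given here, and their other alternatives kept within 1.5 times the reported counts (147 of 182 counts). For SpopβKO over Spop fl/fl within insulin bands, 8 were called higher with cells thinned to 8000 UMIs and 1 with bands by the Ins1 share. In all insulin-led cells 1 was called higher without cells with Hspa1a or Hspa1b UMIs. Between insulin-led and glucagon-led SpopβKO cells, 0 were called lower with a leading hormone at least 10 times the next or with no margin, and 2 with each cell weighted equally, and 1 was called lower in Spop fl/fl cells with no margin.

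Between the highest and the lowest insulin band of the SpopβKO library, the 1 factor called lower, Rfx6, was lost (0 lower) with TMM factors, without mitochondrial genes in the scaling, at most 10% mitochondrial UMIs, at least 1000 genes, either hormone margin, thinning to 3000 or 8000 UMIs or to 2500 non-hormone UMIs, no thinning, Ins1 bands, and without Hspa1a and Hspa1b cells or the 10% of cells with the most UMIs. Called higher there were 8 by Ins1 bands, 1 by Ins2 bands (with 2 lower), 1 per 1000000 of all UMIs (with 2 lower) and 3 without the 10% of cells with the most UMIs. In the Spop fl/fl library 2 were called higher with TMM factors, with 10 bands or at 2500 non-hormone UMIs, 6 by Ins1 bands (with 1 lower) and 0 per 1000000 of all UMIs (with 8 lower), and 6 were called lower by Ins2 bands and 1 without thinning. Among ratios of band 5 over band 1 past 1.5-fold, the sign changed for Nkx6-1 per 1000000 of all UMIs in the SpopβKO library (−0.0794), and by Ins1 bands for Rfx6 in the SpopβKO library (0.0809) and for Nkx6-1 (0.51) and Foxa2 (0.41) in the Spop fl/fl library. Among smaller ratios it changed by Ins1 bands for Pdx1 (1.08), Nkx2-2 (0.66), Isl1 (0.90), Pax6 (0.61) and Rfx6 (0.21) in the Spop fl/fl library and Foxa2 (0.02) in the SpopβKO library, by Ins2 bands for Neurod1 (−0.21), Isl1 (−0.42) and Pax6 (−0.16) in the SpopβKO library, and per 1000000 of all UMIs for the same 3 (−0.43, −0.45 and −0.30) and for Neurod1 in the Spop fl/fl library (−0.43). Other settings turned Spop fl/fl Pdx1 (0.07) and Isl1 (0.08) without thinning, Foxa2 of the SpopβKO library at 3000 UMIs (0.03), and Spop fl/fl Isl1 or Rfx6 with TMM factors, at least 1000 genes, 3000 UMIs, 2500 non-hormone UMIs or without the 10% of cells with the most UMIs. The largest of these values was that of Spop fl/fl Rfx6 at 2500 non-hormone UMIs (0.71), past 1.5-fold. Within bands Mafa alone changed sign, by Ins1 bands (−0.45). The causes were not tested. Depth limits Mnx1 most, with 5 UMIs in band 5 of the Spop fl/fl library. With no filter on low levels the shares of genes called higher and lower were 15.6% and 19.7% between insulin-led and glucagon-led SpopβKO cells, 15.3% and 18.4% between those of the Spop fl/fl library, 17.8% and 7.41% between the libraries in all insulin-led cells and 13.1% and 3.89% within bands, and between band 5 and band 1, 10.5% and 18.7% in the SpopβKO and 10.8% and 28.3% in the Spop fl/fl library. At a mean of at least 25 CPM they were 13.2% and 5.35%, 14.6% and 6.74%, 5.73% and 2.74%, 8.84% and 3.56%, 7.69% and 14.4%, and 9.37% and 29.4% in the same order. Per 1000000 of all UMIs they were 10.1% and 8.95% between insulin-led and glucagon-led SpopβKO cells, 6.12% and 4.31% between the libraries in all insulin-led cells.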
